A study of Mus musculus with 2 samples.

Results

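Chemokine ligands are small secreted proteins that direct the movement of leukocytes. Followed here were 10 of them, named by their symbols: Ccl2, Ccl3, Ccl4, Ccl5, Ccl6, Ccl9, Cxcl2, Cxcl3, Cxcl16 and Xcl1. They are 10 of the 32285 genes in both count tables, and all 10 were found there by symbol and gene ID. The data are droplet-based single-cell RNA-seq (10x Genomics, 3′ v2 kit) of mouse spleen cells that had been frozen alive and then sorted by flow cytometry as CD45.2+CD11b+. The Low B12 treatment and the High B12 treatment gave 1 library each. The series title concerns vitamin B12 and Tet2-deficient blood formation, but the labels give these samples no genotype, strain, age, dose, duration or number of animals. With 1 library per treatment there is no replicate, so every difference below is between these 2 libraries, and every interval (95%) covers counting error only.

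Chemokines act through receptors on the surface of the responding cell. Ccl3, Ccl4 and Ccl5 are inflammatory chemokines made by activated lymphocytes and myeloid cells. Ccl2 is the main ligand of Ccr2, the receptor that brings monocytes out of bone marrow. Ccl6 and Ccl9 are rodent ligands of Ccr1. Cxcl2 and Cxcl3 recruit neutrophils through Cxcr2. Cxcl16, a membrane-anchored chemokine, binds Cxcr6, and Xcl1 from NK and T cells draws cross-presenting dendritic cells through Xcr1.

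Cells were barcodes with at least 500 UMIs (unique molecular identifiers, counted RNA molecules) and at least 200 genes, of whose UMIs at most 10% were mitochondrial. This left 6510 cells in the low-B12 library and 6748 in the high-B12 library, with median depths of 5695 and 4327 UMIs. Each cell went to the first gate it met. The neutrophil gate was S100a8 and S100a9 at 5% of UMIs or more, the B gate at least 3 UMIs of Cd79a and Cd79b, the NK (natural killer) gate at least 2 of Ncr1 and Klrb1c, the cDC (conventional dendritic cell) gate at least 3 of Cd209a, Clec10a and Flt3, and the monocyte gate at least 2 of Csf1r. The gates are ranges of a count and not types. Of the cells, 942 and 2672 (low-B12, then high-B12) were neutrophil-gated, 1264 and 842 monocyte-gated, 946 and 844 NK-gated, 1853 and 673 B-gated, and 479 and 403 cDC-gated, leaving 1026 and 1314 ungated. Cells at the limit were most numerous in the monocyte gate, 266 and 228 cells (21% and 27.1% of it), and were 21.3% and 14.1% of the cDC gate. Each gate's own 8-gene marker list summed higher in it than in any other gate of the same library. The lists include the genes that define the gates, so this outcome was largely set by the gating and is no independent check. Ptprc, which encodes CD45, had a UMI in 98.5% and 98.1% of cells, and Itgam, which encodes CD11b, in 60.1% and 66.7%. Among B-gated cells Itgam was detected in 41.9% and 38.2%. Only 4 barcodes were shared by the cells of both libraries. The neutrophil marker list reached more cells outside the neutrophil gate in the high-B12 library. At least 1 of its UMIs was in 52.0% of NK-gated cells of the low-B12 library and in 94.7% of those of the high-B12 library.

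In the genome (GRCm38, GENCODE M21), 5 of the genes stand together on chromosome 11. Ccl5 (83525778 to 83530518), Ccl9 (83572919 to 83578636), Ccl6 (83587882 to 83593087), Ccl3 (83647844 to 83649355) and Ccl4 (83662584 to 83664683) span 138.9 kb. Ccl2 (82035571 to 82037453) and Cxcl16 (70453983 to 70459984) lie elsewhere on chromosome 11, and Xcl1 is on chromosome 1 (164931644 to 164935527). Cxcl3 (90786103 to 90789600) and Cxcl2 (90903871 to 90905938) are neighbours on chromosome 5, spanning 119.8 kb. The authors' genome build is not given in the sources used here, so these positions are those of the annotation and not of the deposited counts.

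The bases upstream of Cxcl2 and Cxcl3 are shown because the pair share short runs of bases there while their RNA differed widely in abundance, as described for neutrophils below. Both sequences are from RefSeq (GRCm38.p6), plus strand, and end before the annotated start. Capitals mark runs of at least 10 bases that both sequences hold. The longest of these, GGGAATTTCCC, holds a form of the binding motif of NF-kB, a transcription factor through which inflammatory stimuli induce these genes.
Cxcl2 (chr5:90903649-90903870): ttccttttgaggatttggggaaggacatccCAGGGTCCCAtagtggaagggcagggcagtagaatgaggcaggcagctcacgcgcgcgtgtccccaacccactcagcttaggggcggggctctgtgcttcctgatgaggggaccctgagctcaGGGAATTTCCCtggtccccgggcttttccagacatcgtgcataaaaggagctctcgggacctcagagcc
Cxcl3 (chr5:90785851-90786100): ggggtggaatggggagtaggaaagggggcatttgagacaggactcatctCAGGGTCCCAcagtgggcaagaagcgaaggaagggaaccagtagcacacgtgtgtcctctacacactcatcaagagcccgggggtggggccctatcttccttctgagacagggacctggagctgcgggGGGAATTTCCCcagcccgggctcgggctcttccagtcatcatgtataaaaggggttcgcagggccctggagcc
This run of 11 bases ends 86 bases before the RefSeq start of Cxcl2 and 62 bases before that of Cxcl3. The printed Cxcl2 sequence (222 bases) stops at the GENCODE start, which lies before the RefSeq start. The 86 bases are therefore not counted from its printed end, and the 2 distances depend on the start used. Searched on both strands, it was found in 14 of 32851 RefSeq windows of 250 bases before a start (0.0426%), and in 2 of the 6 chemokine genes whose upstream sequence was at hand (those 2, Ccl3, Ccl6, Ccl9 and Xcl1). Aligned end to end, the Cxcl2 and Cxcl3 sequences were identical at 60.7% of columns, the highest value among the 15 pairs. The run was taken from these sequences, and a match to it is a description and not a binding site.

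The upstream bases of Ccl6 and Ccl9 are shown because these neighbours, both ligands of Ccr1, were both found in monocyte-gated cells while neutrophil-gated cells had far more Ccl6 than Ccl9. Both are on the minus strand and are written 5′ to 3′ in the sense of the gene. Capitals again mark shared runs of at least 10 bases.
Ccl6 (chr11:83593088-83593337): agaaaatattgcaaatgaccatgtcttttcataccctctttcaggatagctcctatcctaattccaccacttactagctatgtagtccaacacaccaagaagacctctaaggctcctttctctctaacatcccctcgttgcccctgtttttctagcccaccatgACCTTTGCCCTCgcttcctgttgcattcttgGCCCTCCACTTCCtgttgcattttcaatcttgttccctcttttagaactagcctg
Ccl9 (chr11:83578637-83578886): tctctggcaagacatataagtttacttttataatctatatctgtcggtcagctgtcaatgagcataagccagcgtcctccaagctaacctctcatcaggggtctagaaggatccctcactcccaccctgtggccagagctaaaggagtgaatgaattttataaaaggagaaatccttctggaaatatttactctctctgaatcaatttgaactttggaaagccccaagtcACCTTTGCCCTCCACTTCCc
Such runs covered 25 bases of the Ccl6 sequence and 19 of the Ccl9 sequence, and the pair were identical at 47.2% of aligned columns.

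RNA of the chemokine genes was divided sharply among the gates, in nearly the same way in both libraries. Ccl5, Ccl4, Ccl3 and Xcl1 were highest in NK-gated cells, Cxcl2 and Ccl6 in neutrophil-gated cells, Ccl2 and Ccl9 in monocyte-gated cells, and Cxcl16 in cDC-gated cells. Cxcl3 was close to absent. Levels are in CPM, the UMIs of a gene summed over the cells of a gate and scaled to the total UMIs of that gate. UMIs count molecules at the 3′ end and are not scaled by gene length, and a level does not tell fewer expressing cells from less RNA per cell. NK-gated cells, which held 10.4% and 9.76% of the UMIs of all cells, held 81.4% and 84.3% of the Ccl5 UMIs and 90.5% and 91.5% of those of Xcl1. For Cxcl2 the neutrophil-gated share was 47.5% in the low-B12 library and 77.4% in the high-B12 library, beside 13.6% and 39.5% of all UMIs.

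**Figure D1:**
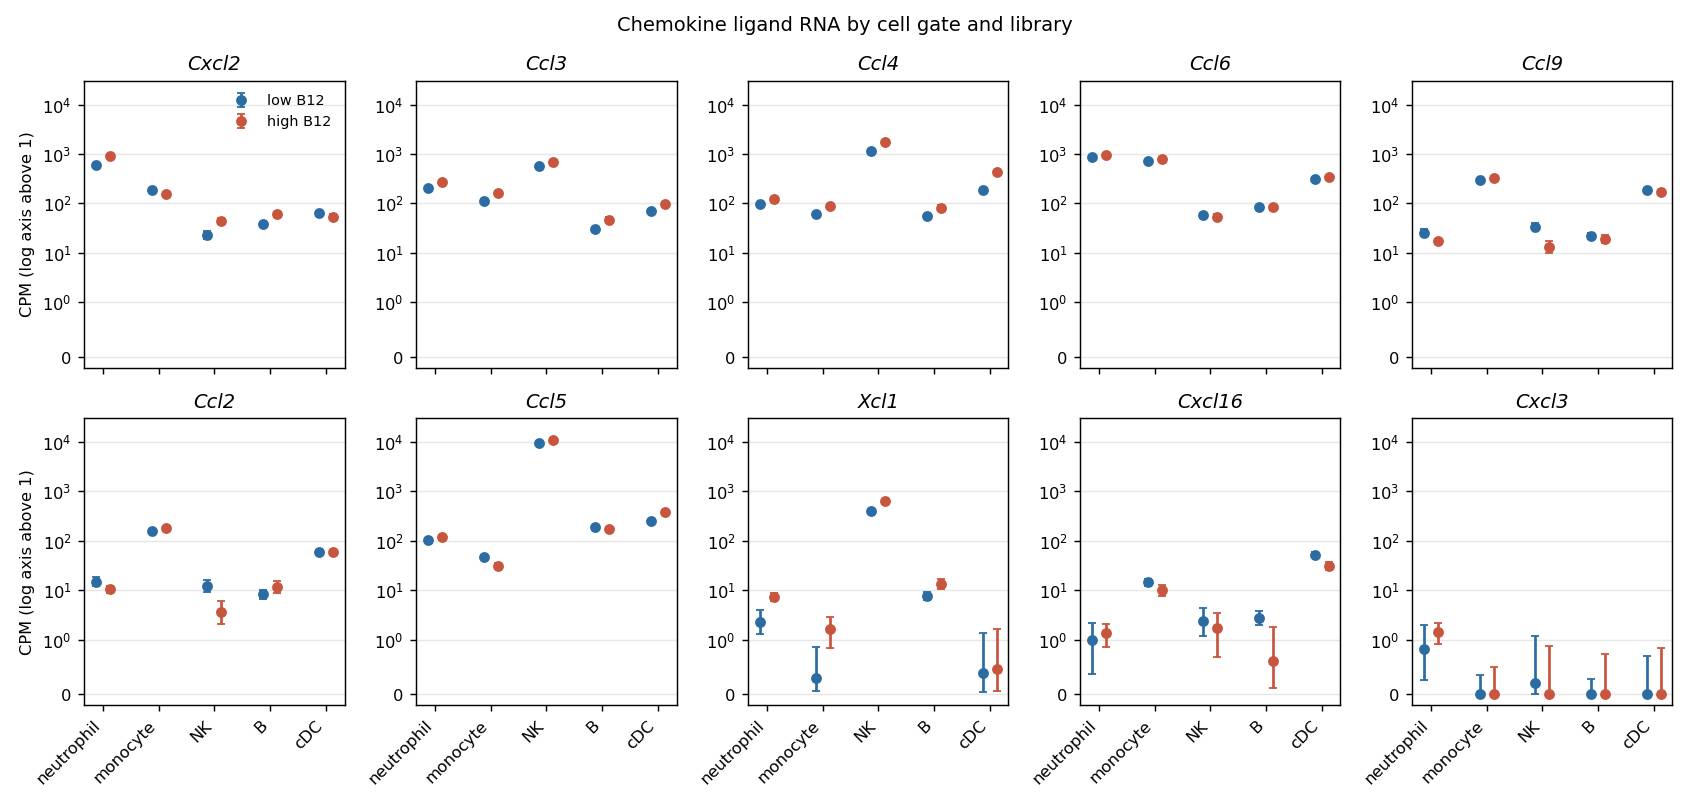
Level of each chemokine gene (CPM, on an axis that is logarithmic above 1 and linear below) in the 5 gates of the low-B12 library (blue) and the high-B12 library (red), with exact Poisson 95% intervals. Ccl5 in NK-gated cells is the highest point in both libraries (9733 and 11024 CPM), and Cxcl3 stays at or under 1.42 CPM in every gate.

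In NK-gated cells Ccl5 stood at 9733 CPM in the low-B12 library and 11024 CPM in the high-B12 library, giving a ratio (high over low) of 1.13 (1.12 to 1.15). Ccl4 stood at 1139 and 1770 CPM, 1.55-fold higher in the high-B12 library (1.5 to 1.61). Xcl1 stood at 408 and 639 CPM, 1.56-fold higher (1.47 to 1.66). Ccl3 stood at 560 and 702 CPM, 1.25-fold higher (1.19 to 1.32). All 4 NK ligands were thus higher in the high-B12 library, Ccl4 and Xcl1 more than Ccl3 and Ccl5. This order held for the intervals, which did not overlap between the first pair and the second. Among cells that met the NK gate and no other, the levels were 1263 and 1821 CPM for Ccl4, 452 and 666 CPM for Xcl1, and 604 and 720 CPM for Ccl3. There the ratios for Ccl4 (1.44) and Xcl1 (1.47) fell just short of the 1.5-fold used as the line for a call, which both genes met over all NK-gated cells.

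The share of NK-gated cells with a UMI separated the 4 genes. Ccl5 was detected in 99.2% of NK-gated cells of the low-B12 library and 98.7% of those of the high-B12 library, against 9.24% and 11% of neutrophil-gated cells, taken as background. The medians of depth were 4216.5 and 4478 UMIs in the NK gate and 3100.5 and 3530 in the neutrophil gate. Cells with a Ccl5 UMI held a median of 40 and 46 of them. Ccl4 was detected in 57.1% (53.9 to 60.3) and 66.6% (63.3 to 69.8), and after every cell was thinned to 500 UMIs in 28.2% and 37.0%. Xcl1 was detected in 48.6% (45.4 to 51.9) and 54.4% (51.0 to 57.8), and thinned in 13% and 16.7%, against 0.318% and 0.187% of thinned neutrophil-gated cells. For Ccl3 the shares were nearly equal, 51.8% and 52.4% (20.0% and 22.4% thinned), while its median count in cells with a UMI was 3 and 4. In B-gated cells, whose median depths were 6048 and 6443 UMIs, Ccl4 was detected in 5.40% and 7.73% and Ccl3 in 5.94% and 7.88%. Most Ccl4 UMIs of the NK gate lay in a minority of its cells. NK-gated cells with 10 or more Ccl4 UMIs made up 20.5% and 28.8% of the gate and held 76.0% and 84.9% of its Ccl4 UMIs.

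Detection of Ccl3 and Ccl4 overlapped within NK-gated cells. At 500 UMIs per cell, Ccl4 was detected in 46.0% (38.8 to 53.4) of cells with a Ccl3 UMI and in 23.8% (20.8 to 27.0) of cells without one in the low-B12 library. In the high-B12 library the shares were 56.1% (48.7 to 63.3) and 31.5% (27.9 to 35.2). Xcl1 did not follow Ccl3 in this way. It was detected in 8.99% (5.33 to 14.0) of cells with a Ccl3 UMI and 14.0% (11.6 to 16.7) of the others in the low-B12 library, and in 14.8% (10.1 to 20.7) and 17.3% (14.4 to 20.4) in the high-B12 library. With Ccl4 the Xcl1 shares were 16.9% and 11.5%, then 19.6% and 15.0%. Cells with more RNA of Gzma, a granule protease of cytotoxic cells, carried more Ccl3 and Ccl5. NK-gated cells with 5 or more Gzma UMIs (863 and 771 cells) had Ccl3 at 589 and 744 CPM, and those with 0 to 4 (83 and 73 cells) at 252 and 299 CPM. For Ccl5 the values were 10065 and 11473 against 6232 and 6621 CPM. Xcl1 ran the other way, at 405 and 612 CPM against 449 (386 to 520) and 907 (814 to 1007) CPM, and in the low-B12 library those intervals overlapped.

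**Figure D2:**
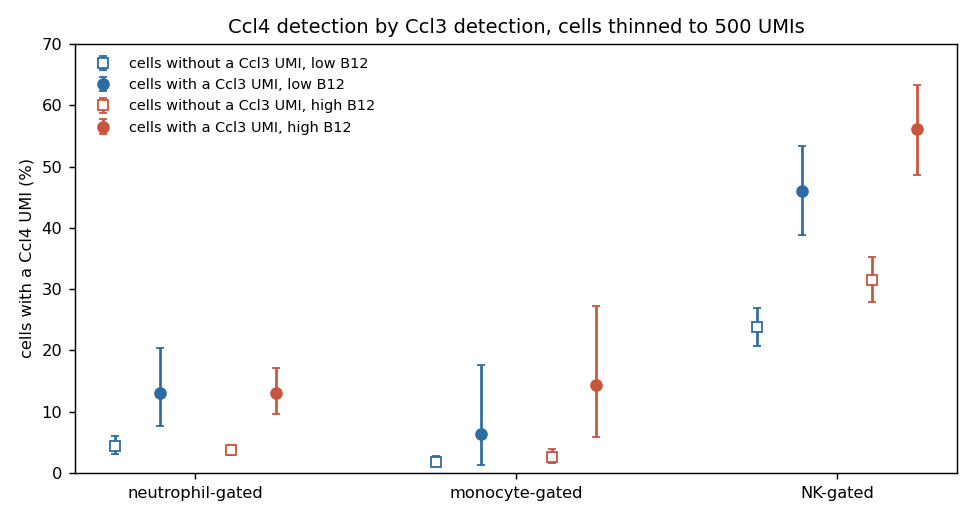
Share of cells (%) with a Ccl4 UMI among cells with a Ccl3 UMI (filled circles) and without one (open squares), by gate and library, after thinning every cell to 500 UMIs, with exact binomial 95% intervals. In NK-gated cells the circles stand at 46.0% and 56.1% and the squares at 23.8% and 31.5%, and in neutrophil-gated cells at 13.1% in both libraries over 4.39% and 3.68%.

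The other chemokine genes were low in NK-gated cells. In the low-B12 library they sat largely in the few cells that met a second gate (46 cells), which held 73.9% of the Ccl6 and 69.2% of the Cxcl2 UMIs. In the high-B12 library such cells (17) held 33.3% of the Ccl2, 23.7% of the Ccl6, 45.5% of the Ccl9 and 14.9% of the Cxcl2 UMIs, so most lay in cells that met the NK gate alone. Ccl2 stood at 12.3 and 3.61 CPM, a ratio of 0.293 (0.154 to 0.525), and Ccl9 at 33.7 and 13.2 CPM, a ratio of 0.393 (0.283 to 0.537). In the low-B12 library 37 NK-gated cells (3.91%) also met the monocyte gate, and they held 78.9% of the Ccl2 UMIs and 69.9% of the Ccl9 UMIs. In cells that met the NK gate alone, Ccl2 stood at 3.01 and 2.53 CPM and Ccl9 at 10.3 and 7.58 CPM. Ccl6 stood at 17.6 and 42.2 CPM in those cells, a ratio of 2.40, against 0.910 over all NK-gated cells. Cxcl2 stood at 23.1 and 43.5 CPM, a ratio of 1.88 (1.48 to 2.42). Over the alternatives tried this ratio ran from 1.29, without the 1% of cells with most Cxcl2 UMIs, to 4.70. In cells that met the NK gate alone Cxcl2 stood at 8.29 and 38.9 CPM. Beside it, the neutrophil marker list summed to 664 and 1881 CPM in NK-gated cells, and in empty droplets (barcodes with 1 to 50 UMIs) Cxcl2 stood at 229 and 419 CPM. The neutrophil receptor gene Cxcr2 had 7.99 and 25 CPM in NK-gated cells. The part of such free RNA in the Cxcl2 level was not tested. Of the 10 genes, 8 had the 50 UMIs over both libraries that a comparison required in the NK gate. Of those 8, 3 (Ccl4, Xcl1 and Cxcl2) were at least 1.5-fold higher and 2 (Ccl2 and Ccl9) at least 1.5-fold lower in the high-B12 library. Over all 9462 genes compared in NK-gated cells, 9.7% were past 1.5-fold, 2.2% in the higher direction and 7.5% in the lower. The median log2 ratio was 0.25 over the 8 and -0.11 over all compared genes.

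Neutrophil-gated cells had the highest gated levels of Cxcl2 and Ccl6. They held 29.0% and 59.2% of all Ccl6 UMIs, and monocyte-gated cells 40.6% and 21.1%. Cxcl2 stood at 611 CPM (low-B12) and 894 CPM (high-B12), with a ratio of 1.46 (1.41 to 1.52). Ccl6 stood at 862 and 956 CPM, a ratio of 1.11 (1.07 to 1.14). Ccl3 stood at 204 and 268 CPM, a ratio of 1.31 (1.23 to 1.40), and Ccl4 at 95.6 and 124 CPM, a ratio of 1.30 (1.19 to 1.43). The higher Cxcl2 level did not come with a higher share of cells in which it was detected. Cxcl2 was detected in 47.7% (44.4 to 50.9) and 45.1% (43.2 to 47.0) of neutrophil-gated cells, thinned 28.0% and 26.9%, against 4.86% and 6.24% of B-gated cells. The median count in neutrophil-gated cells with a Cxcl2 UMI was 6 and 8. Ccl6 was detected in 77.2% and 76.8% (B-gated 11.3% and 12%), and Ccl3 in 29.2% and 29.1% (B-gated 5.94% and 7.88%). Among cells that met the neutrophil gate alone, 809 and 2461 cells, Cxcl2 stood at 767 and 945 CPM and Ccl6 at 1024 and 989 CPM. The Cxcl2 ratio ranged from 1.21 to 1.70 over the alternatives tried, and that of Ccl6 lay on either side of 1, from 0.954 to 1.29.

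Within the neutrophil gate Ccl6, Cxcl2, Ccl3 and Ccl4 were low in cells rich in secondary-granule RNA, which is made by immature neutrophils. Cells with Camp, Ngp and Ltf at 1% of UMIs or more numbered 263 and 743, and cells under 1% numbered 679 and 1929. Ccl6 stood at 104 and 100 CPM in the granule-rich cells and at 2184 and 2200 CPM in the others, so the libraries agreed closely in each range. Cxcl2 stood at 114 (104 to 125) and 217 (208 to 226) CPM in the granule-rich cells and at 1478 (1428 to 1529) and 1879 (1846 to 1911) CPM in the others. Ccl3 stood at 44.4 and 58.6 CPM against 483 and 574 CPM, and Ccl4 at 35.1 and 35.9 CPM against 201 and 253 CPM. Cxcl2 was thus higher in the high-B12 library in both ranges. Ccl5 stood at 82.6 and 102 CPM in the granule-rich cells and at 143 and 140 CPM in the others. The rarer genes had no common direction, with Ccl2 at 11.4 and 11.6 against 20.8 and 8.45 CPM, Ccl9 at 24.9 and 13.7 against 26.3 and 22.6 CPM, and Xcl1 at 3.12 and 5.31 against 0.906 and 9.91 CPM. The granule-rich cells were the deeper ones, with median depths of 12111 and 12069 UMIs against 2710 and 3085. Detection of Cxcl2, Ccl3 and Ccl4 overlapped over the whole gate, with both granule ranges pooled. At 500 UMIs per cell, Ccl3 was detected in 18.6% (14.1 to 23.8) of neutrophil-gated cells with a Cxcl2 UMI and 10.8% (8.53 to 13.3) of those without in the low-B12 library, and in 18.8% (16 to 21.8) and 10.3% (8.98 to 11.7) in the high-B12 library. Ccl4 was detected in 13.1% of cells with a Ccl3 UMI in both libraries, and in 4.39% and 3.68% of cells without. These genes were all low in the granule-rich cells, and overlap within a single range was not tested.

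Cxcl3 was nearly silent beside Cxcl2. Over all cells there were 13 Cxcl3 UMIs in 7 cells of the low-B12 library and 24 in 14 cells of the high-B12 library, against 7784 and 19450 UMIs of Cxcl2. All 24 of the high-B12 library lay in neutrophil-gated cells, and of the 13 of the low-B12 library 5 lay there, 7 in ungated cells and 1 in the NK gate. In monocyte-gated cells it was seen in 0 of 1264 and 0 of 842 cells, which allows shares of cells with a UMI of up to 0.237% and 0.356% (3 cells of the number examined). Its ratio could not be given in any gate. Of the 50-base words in the last 500 bases of the Cxcl2 transcripts, 61 of 799 (7.63%) also occur in Cxcl3 transcripts. None of the 902 such words of Cxcl3 occurs in another of the 10 genes, so the 61 lie outside its last 500 bases. How reads from the 61 were assigned is not known, and their part in the Cxcl3 counts was not tested. No such word of the other 8 genes occurs in another of the 10.

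Of the remaining genes in neutrophil-gated cells, most UMIs lay in cells that also met another gate, which made up 14.1% and 7.90% of the gate. Such cells held 88.5% and 69.5% of the Ccl5 UMIs, 86.7% and 73.0% of those of Ccl2, and 80.5% and 60.3% of those of Ccl9. Xcl1 stood at 2.31 and 7.18 CPM (14 and 121 UMIs), a ratio of 3.11 (1.78 to 5.85), and 85.1% of the 121 UMIs lay in such cells. Xcl1 was the only one of the 8 compared genes past 1.5-fold in this gate, beside 18% of all 9896 genes compared (1.95% in the higher direction and 16% in the lower). The median log2 ratio was 0.27 over the 8 and -0.22 over all compared genes. Scaled instead by the median ratio of genes, Cxcl2 (1.70), Ccl3 (1.53) and Ccl4 (1.51) also passed the line.

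**Figure D3:**
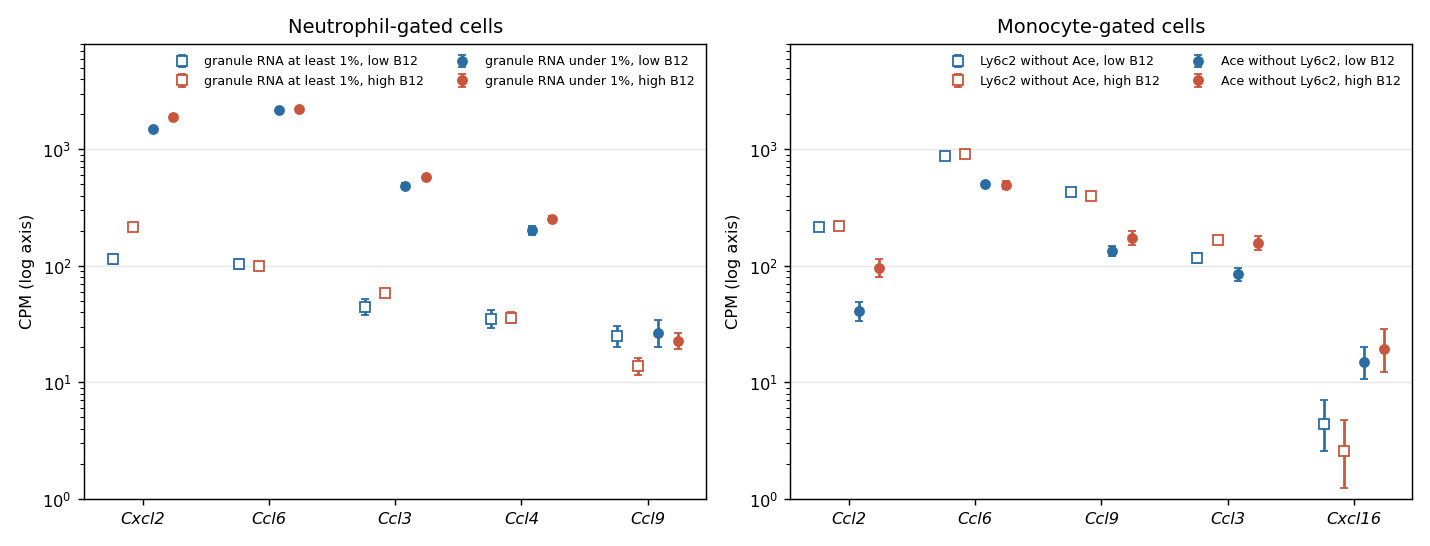
Level (CPM, logarithmic axis) of 5 chemokine genes in neutrophil-gated cells (left), split at 1% of UMIs from Camp, Ngp and Ltf, and in monocyte-gated cells (right), split by Ly6c2 and Ace, with exact Poisson 95% intervals. Ccl6 lies at 2184 and 2200 CPM in granule-poor neutrophils over 104 and 100 CPM in granule-rich ones, and Ccl2 at 216 and 217 CPM in Ly6c2 cells over 40.9 and 96.4 CPM in Ace cells.

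Monocyte-gated cells had the highest gated levels of Ccl2 and Ccl9 and also carried Ccl6. Ccl2 stood at 154 CPM (low-B12) and 182 CPM (high-B12), with a ratio of 1.19 (1.10 to 1.28). Ccl9 stood at 293 and 321 CPM, a ratio of 1.10 (1.04 to 1.16), and Ccl6 at 717 and 775 CPM, a ratio of 1.08 (1.04 to 1.12). Ccl6 was detected in 87.3% and 86.6% of the cells and Ccl9 in 68.5% and 76.7% (thinned 10.9% and 14.3%), against 5.23% and 4.61% of B-gated cells for Ccl9. Ccl2 was detected in fewer cells, 26.5% (24.1 to 29.0) and 28.1% (25.1 to 31.3), against 1.78% and 2.38% of B-gated cells. Monocyte-gated cells were deeper (medians of 7954.5 and 9175 UMIs) than B-gated cells. The neighbours Ccl6 and Ccl9 therefore parted in neutrophils, where Ccl9 stood at 25.4 and 17.3 CPM, and were both present in monocytes.

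Ccl2 and Ccl9 were graded between the monocyte ranges. Cells with Ly6c2, which marks classical monocytes, and without Ace numbered 407 and 383. Cells with Ace, a marker of nonclassical monocytes, and without Ly6c2 numbered 451 and 187. Ccl2 stood at 216 and 217 CPM in the first range and at 40.9 (33.8 to 49.1) and 96.4 (79.9 to 115) CPM in the second. Ccl9 stood at 432 and 398 CPM against 134 and 173 CPM, and Ccl6 at 880 and 905 against 499 and 494 CPM. Cxcl16 ran the other way, at 4.41 and 2.58 CPM against 14.8 and 19.3 CPM. The Ccl2 counting intervals of the libraries were thus apart in the Ace range, with nearly equal levels in the Ly6c2 range. The share of Ace-range cells with a Ccl2 UMI was 10.4% (7.76 to 13.6) and 15.5% (10.6 to 21.5), intervals that overlap. The share of the gate in the Ace range also differed.

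The inducible genes differed in direction in monocyte-gated cells. Ccl3 stood at 114 and 162 CPM, a ratio of 1.42 (1.31 to 1.54), and Ccl4 at 62.1 and 90.4 CPM, a ratio of 1.45 (1.30 to 1.62). Cxcl2 stood at 185 and 152 CPM, a ratio of 0.823 (0.764 to 0.886), the reverse of its direction in neutrophil-gated cells. Both levels were below those of Cxcl2 in empty droplets, 229 and 419 CPM. Cxcl2 stood at 224 (209 to 239) and 143 (131 to 155) CPM in the Ly6c2 range, where the counting intervals were apart, and at 109 and 101 CPM in the Ace range. The share of Ly6c2-range cells with a Cxcl2 UMI was 20.1% (16.4 to 24.4) and 19.1% (15.2 to 23.4), intervals that overlap. Ccl3 was detected in 25.6% (23.2 to 28.1) and 30.3% (27.2 to 33.5) of the cells and Cxcl2 in 18.3% and 16.7%. Over the alternatives tried the ratios ran from 1.34 to 1.61 for Ccl3, 1.18 to 1.85 for Ccl4 and 0.712 to 0.890 for Cxcl2. Ccl5 stood at 47.1 and 30.6 CPM, a ratio of 0.649 (0.552 to 0.762), but 1 cell held 26.0% of the low-B12 UMIs, and without the 10 cells with most Ccl5 UMIs in each library the ratio was 1.17. In empty droplets Ccl5 stood at 1981 and 2197 CPM, above its level in every gate but NK. Cxcl16 stood at 14.4 and 9.88 CPM, a ratio of 0.685 (0.510 to 0.912), beside 19.0 and 8.59 CPM in empty droplets. The part of free RNA in the Cxcl2, Ccl5 and Cxcl16 ratios of this gate was not tested. Xcl1 had 3 and 12 UMIs. Of the 8 compared genes 1 (Ccl5) was past 1.5-fold, beside 8.01% of all 10189 genes compared (2.75% higher and 5.26% lower). The median log2 ratio was 0.12 over the 8 and -0.07 over all compared genes.

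In cDC-gated cells Ccl4 differed most between the libraries. It stood at 186 CPM (low-B12) and 437 CPM (high-B12), with a ratio of 2.35 (2.17 to 2.54), which ran from 1.96 to 2.47 over the alternatives tried. Ccl4 was detected in 20.7% (17.1 to 24.6) and 31.0% (26.5 to 35.8) of the cells, and thinned to 500 UMIs in 6.47% (4.44 to 9.06) and 11.2% (8.26 to 14.7). The comparison in B-gated cells was 5.40% and 7.73%, at median depths of 6048 and 6443 UMIs against 10189 and 10566. The 10 cells with most Ccl4 held 39.2% and 40.1% of its UMIs. Ccl3, its genomic neighbour, stood at 69.9 and 98.4 CPM, a ratio of 1.41 (1.22 to 1.62). Cells that met the cDC gate alone had Ccl4 at 186 and 456 CPM.

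Of the 10 genes, Cxcl16 alone had its highest gated level in cDC-gated cells, and it was lower in the high-B12 library. It stood at 51.8 and 30.7 CPM, a ratio of 0.592 (0.478 to 0.731), which ran from 0.536 to 0.637 over the alternatives tried. It was detected in 22.8% (19.1 to 26.8) and 17.1% (13.6 to 21.2) of the cells. In B-gated cells it had 37 and 3 UMIs. In empty droplets Cxcl16 stood at 19.0 and 8.59 CPM, a difference in the same direction, and the part of free RNA in its ratio was not tested. Ccl5 stood at 247 and 374 CPM, a ratio of 1.51 (1.41 to 1.63), but 1 cell held 45.6% of the high-B12 UMIs. Without the 10 cells with most Ccl5 UMIs in each library the ratio was 0.571, so its direction turned. Ccl6 stood at 307 and 338 CPM, Ccl9 at 183 and 169 CPM, Cxcl2 at 63.2 and 54.2 CPM, and Ccl2 at 59.2 and 58.1 CPM. Cells that also met the monocyte gate, 35.1% and 28.8% of the cDC gate, held 55.8% and 44.1% of the Ccl2 UMIs and 58.2% and 44.7% of those of Ccl6. Of the 8 compared genes 2 (Ccl4 and Ccl5) were at least 1.5-fold higher and 1 (Cxcl16) at least 1.5-fold lower, beside 8.19% of all 9332 genes compared (2.22% higher and 5.97% lower). The median log2 ratio was 0.06 over the 8 and -0.08 over all compared genes.

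**Figure D4:**
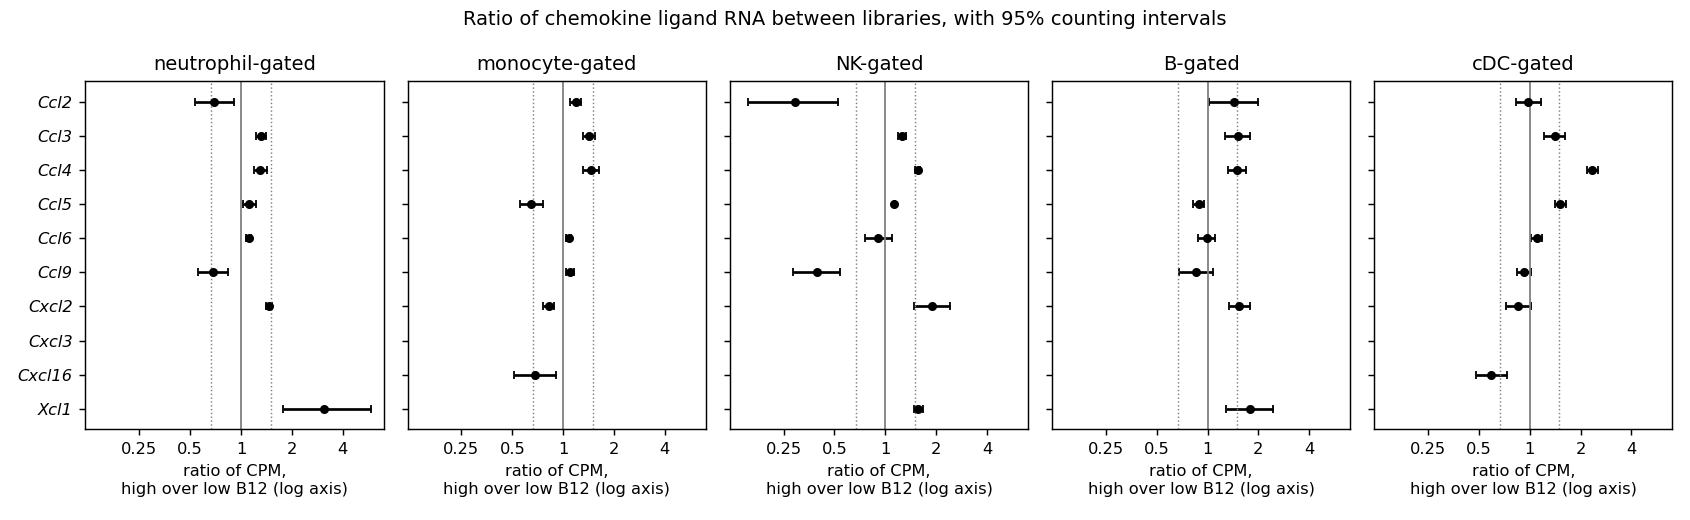
CPM of the high-B12 library divided by that of the low-B12 library (logarithmic axis) for each chemokine gene with at least 50 UMIs over both libraries, by gate, with exact binomial 95% intervals. The solid line marks equality and the dotted lines 1.5-fold in either direction, and Ccl4 lies above 1 in every gate, from 1.30 in neutrophil-gated to 2.35 in cDC-gated cells.

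Ccl3 and Ccl4 were higher in the high-B12 library in all 5 gates. The ratios were 1.31, 1.42, 1.25, 1.51 and 1.41 for Ccl3 and 1.30, 1.45, 1.55, 1.503 and 2.35 for Ccl4, in the order neutrophil, monocyte, NK, B and cDC. In the neutrophil, monocyte, NK and cDC gates no alternative tried turned either direction. In B-gated cells the ratios without the 10 cells with most UMIs were 0.995 for Ccl3 and 0.603 for Ccl4. In empty droplets the same genes stood at 216 and 349 CPM (Ccl3) and at 243 and 386 CPM (Ccl4), so the free RNA differed in the same direction, and its part in these ratios was not tested. The empty-droplet level of Ccl3 was above its level in every gate but NK. That of Ccl4 was above its level in neutrophil-gated, monocyte-gated and B-gated cells of both libraries. It was also above the cDC-gated Ccl4 level in the low-B12 library (243 against 186 CPM), but not in the high-B12 library (386 against 437 CPM).

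B-gated cells, used above for comparison, carried some RNA of these genes too. Activated B cells can make Ccl3 and Ccl4, so for these the B-gated values are not those of cells that lack the gene. Ccl5 stood at 190 and 169 CPM, Ccl6 at 83.6 and 82.9 CPM, Ccl4 at 54.9 and 82.5 CPM, Cxcl2 at 39.0 and 60.1 CPM, Ccl3 at 30.3 and 45.6 CPM, and Xcl1 at 7.57 and 13.5 CPM. Cells that met a second gate made up 9.07% and 6.09% of the gate and held 78.7% and 59.5% of the Ccl5 UMIs and 93.1% and 95.5% of those of Xcl1. Among B-gated cells that met no other gate, Ccl5 stood at 49.7 and 77.1 CPM, Ccl4 at 21.6 and 48.2 CPM, Ccl3 at 12 and 26.8 CPM and Xcl1 at 0.635 and 0.682 CPM. Over the whole B gate 4 of the 8 compared genes (Ccl3, Ccl4, Cxcl2 and Xcl1) were at least 1.5-fold higher, beside 11.7% of all 10883 genes compared (2.91% higher and 8.83% lower). The Cxcl2 ratio of 1.54 was 0.629 without the 10 cells with most Cxcl2 UMIs and 0.720 in cells that met the B gate alone. The Xcl1 ratio of 1.79 was 0.968 with a mitochondrial limit of 5%, and 1 cell held 43.3% of the high-B12 Xcl1 UMIs. The median log2 ratio was 0.56 over the 8 and -0.12 over all compared genes.

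**Figure D5:**
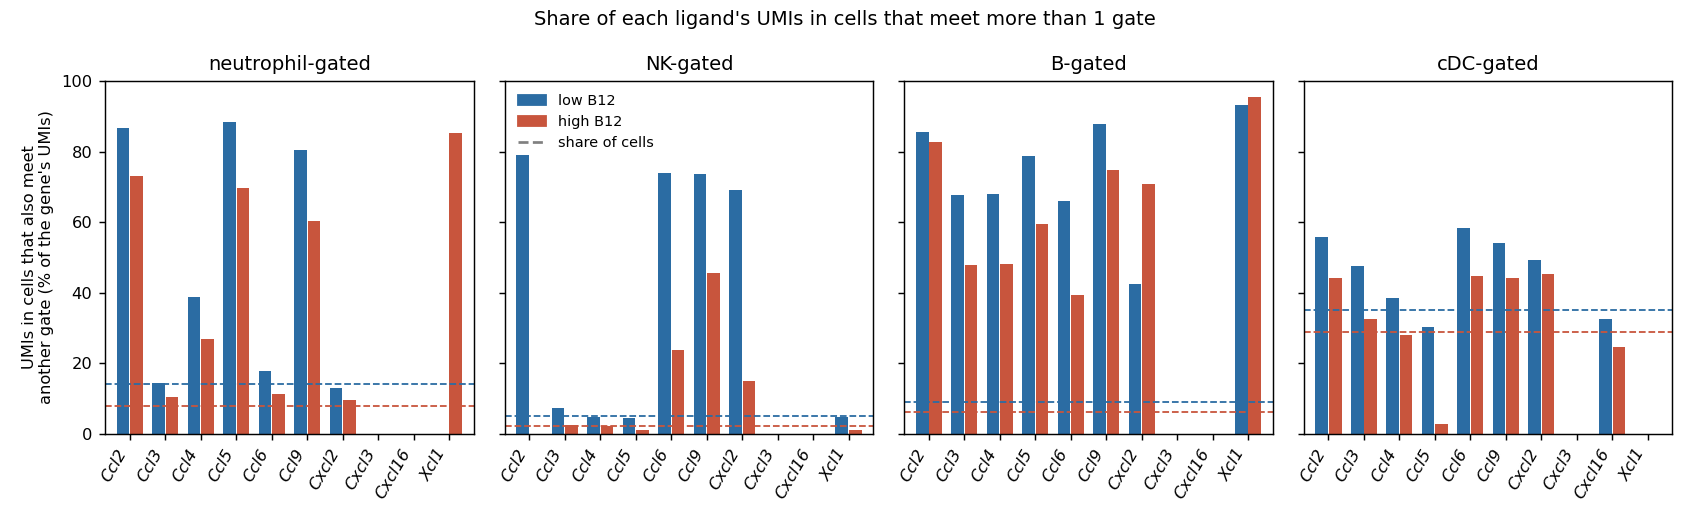
Percentage of each gene's UMIs that lay in cells also meeting another gate, in 4 gates of the low-B12 (blue) and high-B12 (red) library. Dashed lines give the percentage of the gate's cells that did so, and genes with under 50 UMIs in a library have no bar. Ccl5, Ccl4, Ccl3 and Xcl1 in NK-gated cells lie near the dashed lines, while Xcl1 in B-gated cells reaches 93.1% and 95.5%.

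Counted per cell, NK-gated cells carried the most chemokine genes. At 500 UMIs per cell, 14.3% and 19.1% of NK-gated cells had UMIs of 3 or more of the 10 genes, against 5.73% and 5.39% of neutrophil-gated cells. None of the 10 was seen in 4.44% and 4.62% of NK-gated cells, 36.9% and 37.7% of neutrophil-gated cells, 56.2% and 50.6% of monocyte-gated cells, 64.5% and 61.0% of cDC-gated cells, and 93.4% and 91.8% of B-gated cells.

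Other ligands of the family were low. Of 28 other chemokine genes in the tables, 3 to 5 per gate reached 50 UMIs over both libraries. Cxcl9 and Cxcl10, ligands of Cxcr3 induced by interferon, were among them in monocyte-gated cells. There Cxcl9 stood at 32.3 and 2.98 CPM and Cxcl10 at 32.5 and 32.2 CPM. In cDC-gated cells Cxcl9 stood at 35.9 and 61.1 CPM, so the direction was opposite, and Cxcl10 at 23.3 and 9.15 CPM. In NK-gated cells Cxcl10 stood at 37.3 and 35.8 CPM and in B-gated cells at 29.7 and 4.44 CPM. In neutrophil-gated cells the highest was Ccl25, at 7.60 and 7.78 CPM, followed by Cxcl10 at 6.11 and 5.40 CPM and Ccl27a at 3.80 and 2.37 CPM. Ccl25 stood at 14.0 and 12.9 CPM in monocyte-gated and 18.3 and 17.8 CPM in NK-gated cells. In the monocyte gate 5 of 5 were lower in the high-B12 library, 3 of them past 1.5-fold beside 5.26% of all genes, and in the cDC gate 1 of 3 was higher and 2 lower, all past it.

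Receptors of several of these ligands were measured in the same gates. Of 23 receptor genes, 7 to 13 per gate were compared, and of those 0 to 2 per gate were at least 1.5-fold higher and 1 or 2 at least 1.5-fold lower. Over all genes compared, 1.95 to 2.91% per gate were past 1.5-fold in the higher and 5.26 to 16% in the lower direction. Cxcr2, the receptor of Cxcl2, stood at 442 and 469 CPM in neutrophil-gated cells, and Ccr1, the receptor of Ccl6 and Ccl9, at 288 and 325 CPM. Ccr2, the receptor of Ccl2, stood at 591 and 765 CPM in monocyte-gated cells, 339 and 381 CPM in cDC-gated cells and 250 and 248 CPM in NK-gated cells. Cxcr4, which retains leukocytes through Cxcl12, stood at 248 and 200 CPM in neutrophil-gated cells and at 130 and 75.1 CPM in monocyte-gated cells. Cx3cr1, which marks patrolling monocytes, stood at 421 and 372 CPM in monocyte-gated cells and 208 and 194 CPM in cDC-gated cells. In B-gated cells the highest were Cxcr4 at 82.6 and 57.3 CPM, Cxcr5, which guides B cells to follicles, at 54.1 and 74.0 CPM, and Ccr7 at 50.1 and 33.1 CPM. Xcr1, the receptor of Xcl1, stood at 18.9 and 16.5 CPM in cDC-gated cells, and Cxcr6, the receptor of Cxcl16, had 40 and 32 UMIs over all cells. Of the values named for the receptors, Cxcr4 in monocyte-gated cells and Ccr7 in B-gated cells were past 1.5-fold, as was Cxcr2 in NK-gated cells, given further above.

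Genes that stimulation or handling induces were more often lower than higher in the high-B12 library in each gate, and so were all genes compared. Of 26 such genes, 26 were compared in NK-gated cells, 6 higher and 20 lower, and in monocyte-gated cells 24, 6 higher and 18 lower. In neutrophil-gated cells 6 of 25 were higher and 19 lower, 7 of these past 1.5-fold, beside 16% of all genes compared there. In B-gated cells 8 of 26 and in cDC-gated cells 7 of 24 were higher, and in ungated cells 13 of 26. The median log2 ratio was -0.14 over the list and -0.11 over all compared genes in NK-gated cells, -0.13 and -0.07 in monocyte-gated cells, and -0.32 and -0.22 in neutrophil-gated cells. The heat shock gene Hspa1b stood at 343 and 104 CPM in neutrophil-gated cells and at 1345 and 755 CPM in NK-gated cells. Its neighbour Hspa1a stood at 289 and 107 CPM and at 807 and 440 CPM. The phosphatase gene Dusp2 stood at 79.1 and 29.9 CPM in neutrophil-gated cells, 281 and 154 CPM in monocyte-gated cells and 222 and 122 CPM in cDC-gated cells. The immediate early gene Nr4a1 stood at 389 and 269 CPM in monocyte-gated cells and at 142 and 88.3 CPM in cDC-gated cells. Tnfaip3, an inhibitor of NF-kB signalling, stood at 85.8 and 59.9 CPM, 84.4 and 50.6 CPM, and 107 and 65.3 CPM in monocyte-gated, cDC-gated and B-gated cells. In B-gated cells Icam1 stood at 65.3 and 38.5 CPM and Atf3 at 91.8 and 154 CPM. Il1b, a neutrophil and monocyte cytokine, stood at 53.5 and 119 CPM in NK-gated cells. The part of cell handling in the chemokine levels was not tested.

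For each ligand the genes with the most similar pattern over the 10 points (5 gates in 2 libraries) were taken by Pearson's r of log2(CPM + 10) among 2818 genes at 100 CPM or more. The points share libraries, cell totals and gates, so r is a description. Cxcl2 was nearest Trib1 (r = 0.99), Slc16a3 (0.99) and Pi16 (0.98), and Ccl6 nearest Rhog (1.00), Gnai2 (0.99) and Sirpb1b (0.99). Ccl2 was nearest Cd302 (0.99), Tmed10 (0.99) and Clec4a3 (0.99), and Ccl9 nearest Ifi207 (1.00), Ptpro (0.99) and Capza2 (0.99). Ccl5 was nearest Tnfrsf18 (0.98), Klri2 (0.98) and Serpinb6b (0.98), and Xcl1 nearest Ctsw (1.00), Ncr1 (1.00), which is itself a gate gene, and Sytl3 (1.00). Ccl4 was nearest Klrk1 (0.97), Klri2 (0.95) and Arsb (0.95). Ccl3, which was spread over NK-gated and neutrophil-gated cells, was nearest Ubald2 (0.99), Myl6 (0.97) and Aoah (0.96). Cxcl16 was nearest the genes Rnf150 (0.99), Rtn1 (0.98) and Dapk1 (0.98). Cxcl3 was too low for a pattern.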

How the data were processed

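The deposited matrices hold UMI counts per gene and barcode for every barcode (1256219 and 1053362), not normalized by the authors. The matrix headers name Cell Ranger 4 and the submitters' processing notes Cell Ranger 2.1.1, and the genome build is not given in the sources used here. Total counts were 48884220 (low-B12) and 46994991 (high-B12). Counts were summed per gate with Python 3.11.15, numpy 2.4.6 and scipy 1.17.1 and scaled to CPM. With 1 library per group no test was made. Intervals (95%) are exact Poisson for CPM, exact conditional binomial for ratios and exact binomial (Clopper-Pearson) for shares, with 3 counts as the limit where none was seen. The log2 ratios have 0.5 UMI added. Doublets were kept, and Scrublet calls (475 and 329 barcodes, run in scanpy 1.11.5) were left out as an alternative. Upstream bases come from RefSeq GRCm38.p6. The ratio intervals were tried on simulated sums drawn from a Poisson distribution, the error that they assume. Those sums lack the clustering of UMIs in few cells, so coverage under such clustering was not tested. The genes and lists were chosen with earlier results of these data known. All 10 ligands are named. Other ligands and receptors are named by the 3 highest levels per gate, together with the main receptors (1 is not reported here), activation genes by the 3 ratios furthest from 1, and similar genes by the 3 highest r.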

Additional observations from a re-analysis of the deposited data

Results flagged for a closer look

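For 4 genes the ratio between libraries lay on opposite sides of 1 in 2 gates, with both intervals clear of 1. Each gate has 1 library per treatment, so none of these differences between gates was tested.

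Ccl2 had a ratio of 1.43 in B-gated cells and 0.293 in NK-gated cells, which differ 4.89-fold. Both levels were low. B-gated cells had 8.16 and 11.7 CPM, NK-gated cells 12.3 and 3.61 CPM, and cells meeting a second gate held 85.5% and 82.8% of the B-gated UMIs. Ccl9 had a ratio of 1.10 in monocyte-gated cells and 0.393 in NK-gated cells, which differ 2.79-fold, and cells meeting a second gate held 73.7% and 45.5% of the NK-gated UMIs. Ccl5 had a ratio of 1.51 in cDC-gated cells and 0.649 in monocyte-gated cells, which differ 2.33-fold, and both directions turned without the 10 cells with most Ccl5 UMIs. Cxcl2 had a ratio of 1.88 in NK-gated cells and 0.823 in monocyte-gated cells, which differ 2.29-fold. The NK-gated Cxcl2 level rested on 107 and 181 UMIs, of which the 10 leading cells held 77.6% and 86.7%.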

How the results depend on the processing

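Each of 40 ratios was recomputed under up to 12 alternatives, 2 of them chosen after seeing the data (cells that meet 1 gate alone, and leaving out the 1% of cells with most UMIs of a gene). Of the 443 values, 404 kept the sign of the log2 ratio and 39 changed it. Called ratios turned for Ccl5 in monocyte-gated cells (log2 ratio 0.23 without the 10 leading cells and 0.44 without the leading 1%) and for Ccl5 in cDC-gated cells (-0.81 and -0.67). In B-gated cells, leaving out the 10 leading cells gave -0.0027 for Ccl3, -0.72 for Ccl4 and -0.66 for Cxcl2. Cells that met the B gate alone gave -0.47 for Cxcl2, and a mitochondrial limit of 5% gave -0.035 for Xcl1. The cause of these turns was not tested.

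The number of genes past 1.5-fold was small and moved with the setting. In neutrophil-gated cells 1 became 4 with scaling by the median ratio, 0 with thinning to 500 UMIs, 2 with stricter gates, 4 without the 10 leading cells and 2 with no minimum of UMIs. In monocyte-gated cells 1 became 2 with equal weight per cell, with thinning, with no minimum and without the leading 1%, and 3 without the 10 leading cells. In NK-gated cells 5 became 2 with thinning, without Scrublet doublets, without the 10 leading cells and in cells meeting 1 gate alone, and 3 without the leading 1%. In B-gated cells 4 became 1 with thinning, with the 5% mitochondrial limit and with stricter gates, and 2 without Scrublet doublets. In cDC-gated cells 3 became 1 with thinning. Thinning leaves fewer genes with 50 UMIs, 3 to 6 per gate. No paired analysis was possible because each treatment has 1 library. Depth limits Cxcl3, Cxcl16 and, outside NK-gated cells, Xcl1.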

Other observations

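Ungated cells (1026 and 1314) carried much chemokine RNA. Ccl3 stood at 241 and 478 CPM there and Cxcl2 at 250 and 521 CPM, ratios of 1.99 and 2.09. Cells with S100a8 and S100a9 from 1 to 5% of UMIs, just under the neutrophil limit, numbered 199 and 516. They held 60.1% and 67.8% of the ungated Cxcl2 UMIs and 34.7% and 59.9% of those of Ccl3. Cxcl2 stood at 1367 and 1388 CPM in these cells, and at 112 and 225 CPM in the remaining ungated cells.

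Ungated cells with 3 or more UMIs of the T cell list (75 and 46 cells) had Ccl5 at 4598 and 9840 CPM and held 41.7% and 71.0% of the ungated Ccl5 UMIs. In the low-B12 library 2 ungated cells had 3 or more UMIs of the basophil and mast cell list. They carried 130 Ccl3 UMIs, or 20495 CPM, which was 10.9% of the ungated Ccl3 UMIs, while the 3 such cells of the high-B12 library stood at 1457 CPM. Cxcl16 stood at 51.8 and 15.7 CPM in ungated cells, a ratio of 0.304 (0.232 to 0.393), in the same direction as in cDC-gated cells.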
